A study of Mus musculus with 24 samples.

Results

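The early response to Kdo2 lipid A (KLA) was compared between 2 kinds of macrophages from C57BL/6 mice, those elicited in the peritoneum (EPM) and those grown from bone marrow (BMDM). The members were every sample whose label gave 1 of these cell types with KLA for 1 h or with the control nearest to it in time, 8 of the 24 samples in the series. They formed 4 groups of 2 samples by treatment and time: EPM untreated, EPM with KLA for 1 h, BMDM with DMSO for 1 h and BMDM with KLA for 1 h. EPM had been drawn by thioglycollate and lavaged 3 days later, then held overnight in medium with 10% serum before loose cells were rinsed away. BMDM had grown for 6 to 8 days with L-cell supernatant, which supplies M-CSF, and then spent a night in RPMI with added M-CSF. The controls therefore differed, with no vehicle in EPM and 1 h of DMSO in BMDM. Each array carried both samples of a group, 1 labelled with Cy5 and 1 with Cy3, and the arrays of a cell type shared a slide.

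KLA is the lipid core of bacterial lipopolysaccharide, and macrophages sense it through TLR4 with its partners MD-2 and CD14. The receptor signals through the adaptors MyD88 and TRIF to NF-kappaB, MAP kinases and interferon regulatory factors, which act on chromatin already opened by macrophage lineage factors. The first genes to respond encode cytokines, chemokines, transcription factors and inhibitors of the pathway itself, and genes driven by secreted interferon follow.

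KLA raised 287 of 17200 genes (1.67%) in EPM and 275 of 17198 genes (1.6%) in BMDM by at least 2-fold at a limma adjusted p under 0.05, and lowered 72 (0.419%) and 72 (0.419%). The genes induced in both numbered 181, which was 63.1% of the EPM list and 65.8% of the BMDM list. The 2 responses differed at an adjusted p under 0.05 for 1643 of 17196 genes (9.55%), and by at least 2-fold for 173 of them. The change was more positive in EPM for 100 genes (0.582%) and less positive for 73 (0.425%), a balance that turned to 378 against 495 with the scanner's processed signal and to 151 against 168 with 12 h DMSO controls. With dye as a block, since dye pairs the channels, 3088 genes differed at that adjusted p. With arrays as the units, the 2 control arrays of a cell type were merged, which changed the contrast and left 2 residual degrees of freedom. In that fit limma called 0, with 704 of 17188 at an unadjusted p under 0.05. Over all genes tested the median difference of responses was -0.02 log2, and over the 381 genes induced in either cell type it was 0.08. Among the 381, 253 had no difference called, with a median response of 1.34 in EPM and 1.33 in BMDM.

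A response can be greater because a gene starts lower or because it ends higher, so the 2 levels were compared beside the responses. The basal level was higher in EPM for 934 of 17199 genes (5.43%) and lower for 876 (5.09%), and the level after KLA was higher for 914 (5.31%) and lower for 797 (4.63%). Of the induced genes, 68 responded more in EPM. They divided into 20 with only a lower basal level in EPM, 25 with only a higher induced level, 7 higher at both levels, 5 lower at both and 11 with neither level called. The 60 induced genes that responded less in EPM divided into 10 with only a higher basal level, 32 with only a lower induced level, 9 higher at both, 2 lower at both and 7 with neither. Detection limited these counts, since 6 of the 7 more responsive genes higher at both levels, 12 of the 25 and 15 of the 32 had a control or induced group near background on which the sign of the difference rests. For the levels, a slide effect has the same pattern as cell type, while each response was measured within a slide. In bulk RNA, fewer cells of a type and less RNA per cell cannot be told apart either.

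**Figure D1:**
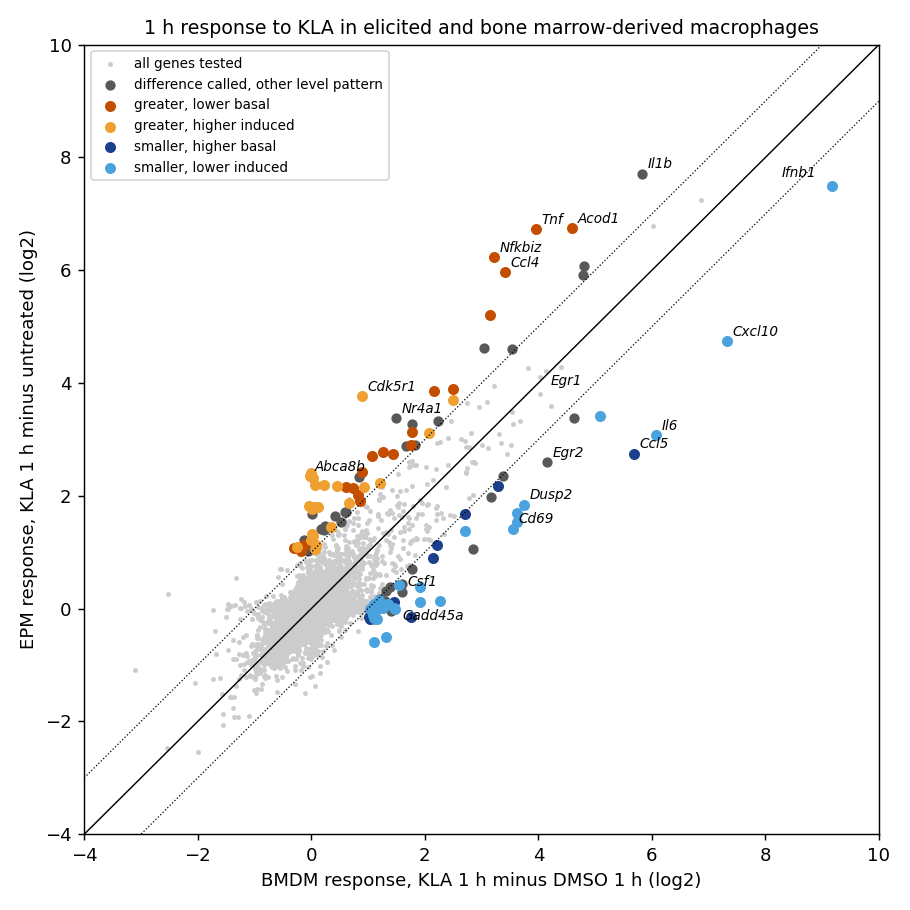
Response to KLA at 1 h in EPM against BMDM for the 128 induced genes with a called difference, by the level at which the cell types differed. Median responses were 2.76 in EPM and 1.35 in BMDM for the 20 genes with a lower basal level in EPM.

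The genes with only a lower basal level in EPM included main early outputs of TLR4. Their median response was 2.76 in EPM and 1.35 in BMDM, and 18 of the 20 had a lower basal level against the 12 h DMSO controls too. Tnf, the cytokine that drives acute inflammation, read 9.60 and 9.62 in untreated EPM and 16.31 and 16.37 after KLA, and 12.27 and 12.32 in control BMDM and 16.16 and 16.32 after KLA. The controls did not overlap and the induced channels did. KLA thus raised Tnf 106-fold in EPM and 15.4-fold in BMDM, a difference of 2.79 (SE 0.11, adjusted p 8.32e-12), and basal Tnf was 6.43-fold lower in EPM. Nfkbiz, which encodes an inducible IkappaB protein that switches on secondary NF-kappaB targets, read 8.03 and 7.99 in untreated EPM, 14.26 and 14.22 after KLA, 11.04 and 11.13 in control BMDM and 14.40 and 14.21 after KLA. Its response was 75.2-fold against 9.34-fold, with a basal level 8.43-fold lower in EPM and an induced level that did not differ (-0.07, adjusted p 0.496). With the 12 h DMSO controls the differences widened to 3.66 for Tnf and 3.70 for Nfkbiz.

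The chemokine genes of monocyte and T cell recruitment, Ccl3 and Ccl4, also started lower in EPM. Ccl4 read 11.07 and 11.19 in untreated EPM and 13.70 and 13.79 in control BMDM, and after KLA 17.18 and 17.00 in EPM and 17.21 and 17.11 in BMDM, so the cell types were apart before KLA and overlapped after it. The response was 62.3-fold in EPM and 10.7-fold in BMDM (difference 2.54, SE 0.15, adjusted p 1.85e-09). Ccl3 responded 36.6-fold against 8.9-fold (difference 2.04, adjusted p 2.76e-07), and after KLA it read 15.61 and 15.38 in EPM and 16.08 and 15.85 in BMDM, lower in EPM without overlap (-0.47, adjusted p 0.00389). Acod1, the enzyme that makes itaconate, read 9.07 and 8.99 in untreated EPM and 11.58 and 11.58 in control BMDM, and after KLA 15.79 and 15.75 in EPM and 16.16 and 16.20 in BMDM. Its response was 107-fold against 24.3-fold (difference 2.14, adjusted p 7.65e-10), with the induced level also lower in EPM (-0.41, adjusted p 0.000363). Isg15, a ubiquitin-like protein conjugated in the interferon response, had a basal difference of -1.98 and a difference of responses of 1.70 (adjusted p 4.22e-07), or 2.28 with the 12 h controls. Restraints of the pathway were in the group too: the A20-binding protein Tnip3 (1.52, adjusted p 7.91e-11) and the RNase Zc3h12a, which degrades cytokine transcripts (1.37). The TNF family ligand Tnfsf14 (LIGHT) differed by 1.18.

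The NF-kappaB subunits and inhibitors were counted as a list, and no test of the list was run. Of its 14 genes tested, 12 were induced in EPM and 9 in BMDM, against 1.67% and 1.6% of all genes. A difference above 0 was found in 13 (7606 of 17196 over all genes), and the median difference was 0.46 against -0.02 over all genes. Nfkbia, the inhibitor IkappaBalpha that is resynthesised within the first hour, read 12.37 and 12.47 in untreated EPM, 17.16 and 16.91 after KLA, 13.21 and 13.50 in control BMDM and 16.44 and 16.37 after KLA. EPM were lower before KLA and higher after it without overlap, and the response was 24.5-fold against 8.25-fold (difference 1.57, SE 0.15, adjusted p 5.44e-07). Neither level passed 2-fold alone, with basal -0.94 and induced 0.63. Il1b, the pyrogenic cytokine made as a precursor, also moved at both ends. It read 7.91 and 7.76 in untreated EPM, 15.67 and 15.42 after KLA, 8.79 and 8.84 in control BMDM and 14.67 and 14.62 after KLA, a response of 209-fold against 56.9-fold (difference 1.88, adjusted p 4.39e-09), and 3.62 with the 12 h controls. The orphan nuclear receptor gene Nr4a1 responded 10.4-fold in EPM and 2.8-fold in BMDM (difference 1.89, adjusted p 5.85e-11). Of the 14 listed genes, 3 had a called difference, all upward, against 0.582% upward and 0.425% downward over all genes. The inhibitor genes Tnfaip3 (-0.12) and Nfkbib (0.10) were close to 0.

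A second group responded more in EPM with only the level after KLA called higher. Cdk5r1, the p35 activator of the kinase Cdk5, read 6.80 and 6.97 in untreated EPM, 10.72 and 10.59 after KLA, 7.66 and 7.43 in control BMDM and 8.50 and 8.39 after KLA. The induced channels of EPM stood above the other 6, and the response was 13.6-fold against 1.86-fold (difference 2.87, SE 0.12, adjusted p 3.38e-11) with an induced level 4.62-fold higher. Abca8b, a lipid transporter, read 8.50 and 8.48 in EPM with KLA and between 6.11 and 6.70 in the other 6 channels, with a response of -0.03 in BMDM (adjusted p 0.751), while its other probe, near background, gave a difference of -0.05. Eid3, an inhibitor of EP300-type coactivators, read 8.48 and 8.42 in EPM with KLA and between 6.24 and 6.61 elsewhere (difference 1.97). The transcription factor gene Prdm10 and the serine protease gene Prss41 differed by 1.76 and 1.76, with induced levels higher by 1.61 and 1.60. Btg1, which slows proliferation, differed by 1.09 (adjusted p 0.00324) with an induced level higher by 1.71. Basal differences short of 2-fold were -0.66 for Cdk5r1, -0.51 for Abca8b and 0.63 for Btg1. Il23a, which encodes the p19 subunit of IL-23, had a value of 1.71 that rests on groups near background. Il1a read higher in EPM at both levels, with a value of 1.12, and its sign turned to -1.65 with the scanner's own processed signal, with control BMDM at background (6.02 and 6.09).

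**Figure D2:**
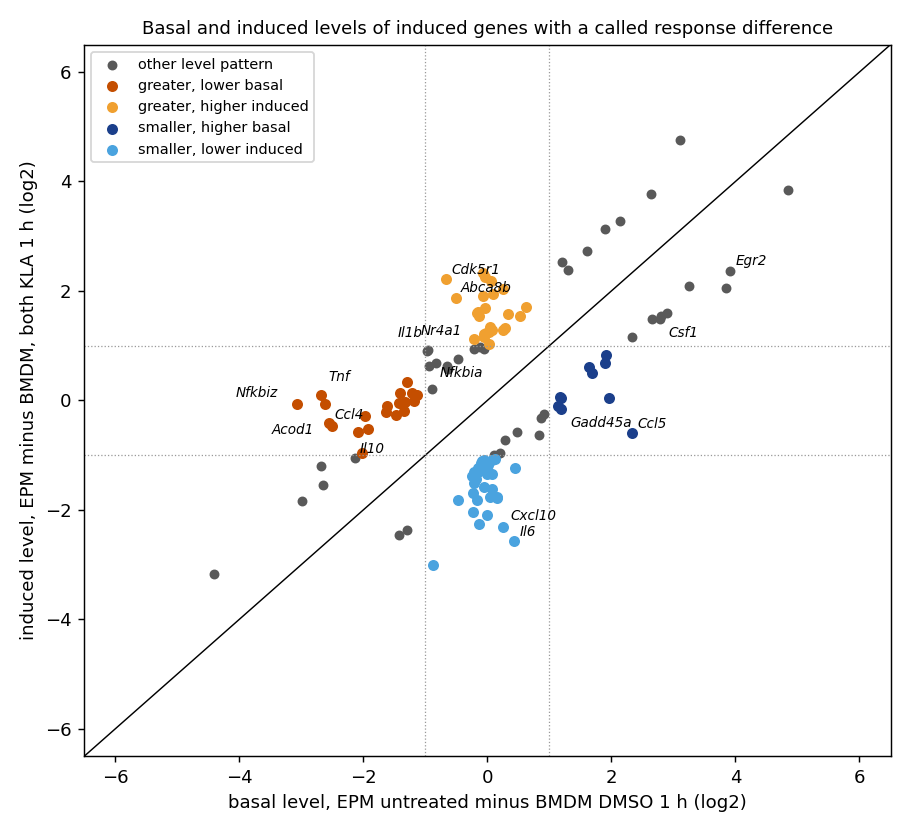
Difference between EPM and BMDM before KLA against the difference after KLA for the same 128 genes. Nfkbiz lay at -3.07 before KLA and -0.07 after it, and Ccl5 at 2.34 and -0.60.

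In 10 genes only the basal level was called higher in EPM. Ccl5, the chemokine RANTES, read 11.94 and 12.02 in untreated EPM and 9.61 and 9.67 in control BMDM, and after KLA 14.65 and 14.81 in EPM and 15.26 and 15.40 in BMDM. EPM stood above BMDM before KLA and below it after, without overlap. Ccl5 rose 6.73-fold in EPM and 51.8-fold in BMDM (difference -2.94, SE 0.19, adjusted p 6.85e-09), on a basal level 5.07-fold higher. Tsc22d1, a leucine zipper regulator that responds to TGF-beta, read 9.76 and 9.81 in untreated EPM, 9.60 and 9.67 after KLA, 7.81 and 7.85 in control BMDM and 9.56 and 9.63 after KLA. BMDM with KLA overlapped EPM with KLA and stayed just below untreated EPM, and the difference was -1.91 (adjusted p 5.81e-11). The stress gene Gadd45a had a similar form, at 11.32 and 11.38 in untreated EPM, 10.18 and 10.13 in control BMDM and between 11.39 and 11.64 in the 4 KLA channels (difference -1.35, adjusted p 1.1e-07). Its relative Gadd45b differed by -1.07 and stayed 0.83 higher in EPM after KLA. The chaperone gene Hspa1a (-1.11), the IL-27 subunit gene Il27 (-1.15) and the keratin gene Krt14 (-1.21) fell short of 2-fold with the 12 h controls, at -0.51, -0.33 and -0.19.

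Of the 60 induced genes that responded less in EPM, 32 had only the level after KLA called lower. Il6, a cytokine of the acute phase response, read 6.60 and 6.51 in untreated EPM, 9.67 and 9.57 after KLA, 6.12 and 6.13 in control BMDM and 12.19 and 12.20 after KLA. Control BMDM were not well above background, so the response was 8.39-fold in EPM and at least 67.2-fold in BMDM, and the induced level was 5.95-fold lower in EPM (adjusted p 1.29e-16). Cxcl10, which attracts activated T cells through CXCR3, read 9 and 8.86 in untreated EPM, 13.76 and 13.60 after KLA, 8.97 and 8.39 in control BMDM and 16.22 and 15.78 after KLA. The controls overlapped and the induced channels did not. Its response was 26.8-fold against 160-fold (difference -2.58, SE 0.24, adjusted p 6.18e-07), and the difference shrank to -0.84 with the 12 h controls. Dusp2, a phosphatase that inactivates MAP kinases, read 13.69 and 13.57 in EPM with KLA and 15.52 and 15.28 in BMDM with KLA, from controls between 11.59 and 11.86 (difference -1.92, SE 0.16, adjusted p 1.56e-07). Ch25h, which makes 25-hydroxycholesterol, differed by -1.95, or -0.98 with the 12 h controls, and the early activation receptor gene Cd69 by -2.13, or -1.40.

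Interferon beta reached a lower level in EPM, and the sign of its difference of responses was not settled. Ifnb1 read 5.99 and 6.05 in untreated EPM, 13.66 and 13.37 after KLA, 6.23 and 6.12 in control BMDM and 15.44 and 15.23 after KLA. Both controls were at background, so the response was at least 181-fold in EPM and at least 575-fold in BMDM. The induced level was 3.54-fold lower in EPM, and the difference of responses (-1.67) rests on the 2 floors and was not called with the processed signal (-0.47, adjusted p 0.751). The values for Il12b (-2.10) and Cxcl11 (-2.13) rest on groups near background as well. Of 20 interferon-stimulated genes tested, KLA induced 9 in EPM and 10 in BMDM, against 1.67% and 1.6% of all genes. The median difference of responses was -0.14, with the other sign against the 12 h controls. The difference was above 0 for 4 genes and below 0 for 15 (7606 and 9161 of 17196 over all genes). The levels were apart, with 14 of the 20 lower in EPM before KLA (5.09% of all genes) and 13 of the 20 lower after it (4.63% of all genes). The GTPase gene Iigp1 (-2.98) and the RNA-binding gene Ifit3 (-2.97) were the lowest of these before KLA. Mx2, an antiviral GTPase, differed in response by -1.02 with the 1 h control and by 0.29 with the 12 h controls, where the sign turned.

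Egr2, Csf1 and Sgk1 stood higher in EPM before and after KLA yet responded less. Egr2, an immediate-early zinc finger factor, read 12.84 and 12.98 in untreated EPM, 15.51 and 15.51 after KLA, 8.96 and 9.02 in control BMDM and 13.22 and 13.06 after KLA. It was 15.2-fold higher in EPM before KLA and 2.37 log2 higher after it, with responses of 2.60 and 4.15 (difference -1.56, SE 0.10, adjusted p 3.72e-09). Csf1, which encodes M-CSF, was 6.87-fold higher in untreated EPM and responded by 0.30 in EPM and 1.60 in BMDM (difference -1.30, adjusted p 2.96e-07, or -1.89 with the 12 h controls). The kinase gene Sgk1 was 2.90 log2 higher before KLA and differed in response by -1.31. Atf3, a stress-induced repressor of TLR4 targets, read 15.05 and 14.95 in untreated EPM and 14.62 and 14.58 after KLA, but 14.30 and 14.29 in control BMDM and 15.15 and 15.07 after KLA (difference -1.22), so it was higher in EPM before KLA and lower after it. The 16 immediate-early genes tested had a median difference of -0.04, whose sign turned with the authors' table.

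**Figure D3:**
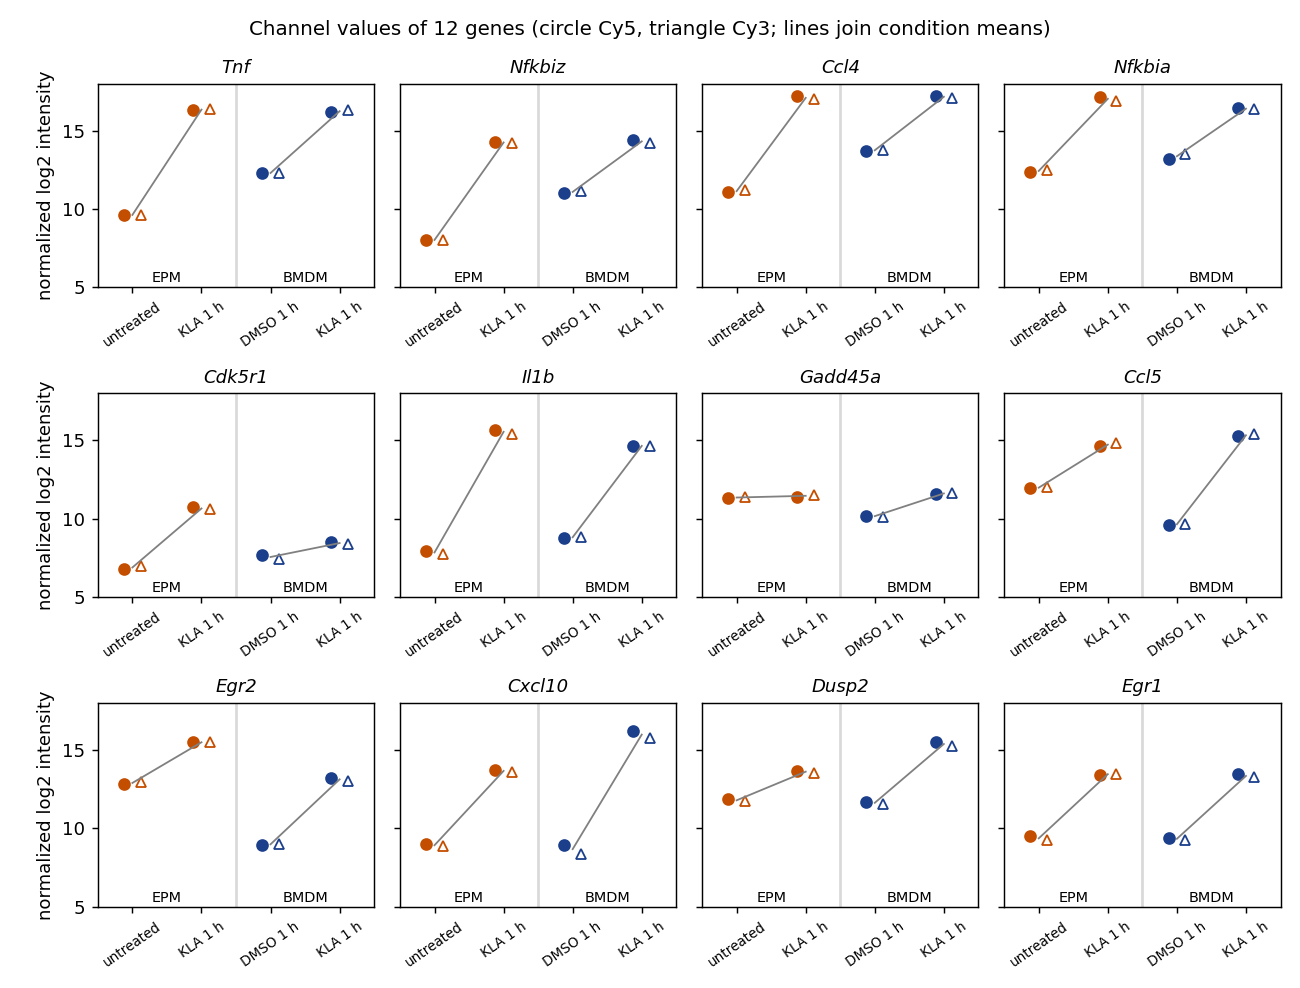
Level in each of the 8 channels for 12 genes. The difference of responses ran from 3.01 for Nfkbiz to -2.94 for Ccl5, with Egr1 at 0.08.

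Several of the strongest early genes responded alike against the untreated and 1 h DMSO controls. Egr1, a zinc finger factor induced through ERK, moved from a mean of 9.37 to 13.47 in EPM and from 9.34 to 13.36 in BMDM. The A20 gene Tnfaip3 responded by 4.28 and 4.40, the cytokine signalling inhibitor gene Socs3 by 4.22 and 4.13, and the small MAF factor gene Maff by 3.49 and 3.53. The neutrophil chemokine gene Cxcl1 responded by 7.24 and 6.87 (difference 0.37, adjusted p 0.33). With the 12 h controls the differences were -0.17 for Egr1, 0.12 for Tnfaip3, 0.58 for Socs3, -0.7 for Maff and 0.57 for Cxcl1. Receptor levels were close as well, with mean Tlr4 at 9.84 in untreated EPM and 9.87 in control BMDM and Ly96, the MD-2 gene, at 11.17 and 11.12. The coreceptor gene Cd14 was lower in untreated EPM (basal difference -1.19) and responded by 2.38 against 1.53, a difference of 0.85 (adjusted p 0.000391) that became 1.75 with the 12 h controls. Irak2, a kinase of the MyD88 complex, differed by -0.76, and by -1.03 with the 12 h controls. Among 20 TLR4 receptor and adaptor genes tested, limma called 0 at 2-fold against the untreated and 1 h DMSO controls, 8 had an unadjusted p under 0.05 against 3657 of 17196 over all genes, and the median was 0.02, with the other sign against the 12 h controls.

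Cytokine and chemokine families were mixed. Of 15 cytokine genes tested, 10 were induced in EPM and 10 in BMDM, against 1.67% and 1.6% of all genes. The difference was upward in EPM for 6 and downward for 4, against 0.582% and 0.425% of all genes, with 3 of the 10 (Il1a, Il23a and Il12b) resting on groups near background, and the median was 0.34. Il10, the anti-inflammatory cytokine, read 6.24 and 6.21 in untreated EPM and 8.37 and 8.36 in control BMDM, and after KLA 9.68 and 9.40 in EPM and 10.56 and 10.63 in BMDM. It stayed lower in EPM at both levels while its response was greater by 1.09 (adjusted p 5.75e-07). The TNF family ligand gene Tnfsf9 (4-1BBL) responded by 6.07 and 4.80, a difference of 1.26. Of 11 CXC chemokine genes, 1 differed upward and 2 downward, with Cxcl3 and Cxcl11 of these resting on groups near background, and a median of 0.12 whose sign turned under 4 of the alternatives, among them the smaller offset. Of 13 CC chemokine genes, 7 had a lower basal level in EPM (5.09% of all genes), 2 differed upward in response and 1 downward, and the median was 0.13. The 130 genes of the published inducible list that were tested had a median difference of 0.53, with 35 upward and 11 downward, and because that list was chosen on EPM samples of this series the lean toward EPM is not independent evidence.

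Genes lowered by KLA gave 28 of the called differences, and many depended on the control. Id1, an inhibitor of bHLH factors, read 10.01 and 9.92 in untreated EPM, 8.84 and 8.91 after KLA, 12.52 and 12.52 in control BMDM and 9.44 and 9.39 after KLA. The difference of 2.02 (adjusted p 1.38e-11) became 0.01 with the 12 h controls. Irgq, an immunity-related GTPase gene, read between 8.24 and 8.57 in 6 channels and fell to background in BMDM with KLA, a difference of at least 2.58 on this probe, while the gene's other probe gave 0.60. Of the 21 genes less repressed or raised in EPM, 5 were olfactory receptor genes (470 of 17202 over all genes), 14 rested on groups near background, and 3 kept a 2-fold difference with the 12 h controls. The endocytic receptor gene Mrc2 (-1.44) and the ubiquitin ligase gene Fbxo32 (-1.39) each moved to -0.27 with those controls. Over all 173 called genes, 63 of the 100 and 44 of the 73 kept direction and 2-fold size with the 12 h controls. Of the 173, 53 rested on groups near background and 11 were olfactory receptor genes. These made up 3 of the 25 induced genes with only a higher induced level.

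The cell labels were checked against marker lists, and their part in the result was not tested. The share of the most abundant marker is pooled over the 8 channels. All 10 macrophage markers were well above background in the 4 groups, with summed levels from 559000 to 686000 and Ctsd the most abundant at 28.6%. Of 6 resident peritoneal markers, 5 were well above background in EPM and 3 in BMDM (3120 to 3650 against 2330 to 2410), with Icam2 at 57.2% of the pooled sum but below Gata6 in untreated EPM (10.38 and 10.45). Mesothelial and fibroblast markers numbered 9 of 9 in EPM and 5 in BMDM, with sums of 59400 to 64800 against 4530 to 5940, led by Col1a2 at 51.8%, and limma called 0 of the 9 for the difference of responses, with 2 at an unadjusted p under 0.05, close to the share over all genes. Dendritic cell markers summed to 18900 to 19600 in EPM and 1090 to 1430 in BMDM, led by H2-Ab1 at 48.1%. Neutrophil markers summed to 2200 to 2840 in EPM and 15600 to 25900 in BMDM, with S100a9 the most abundant at 69.1%. Of 9 neutrophil markers tested limma called 0 for the difference of responses, 7 had an unadjusted p under 0.05 (3657 of 17196 over all genes), 7 lay below 0 (9161 of 17196), and the median was -0.33. B cell markers summed to 2210 to 2650 and 4380 to 5610, led by Cd79b at 41.7% with Pax5 and Blk at background. Eosinophil markers summed to 678 to 749 in EPM and 1060 to 1500 in BMDM. T and NK cell (660 to 785), mast cell (407 to 463) and erythroid (296 to 333) sums were small in both. All 4 Y chromosome genes were well above background in the 8 channels and Xist was not. Of 16 cell cycle genes, 12 had a lower basal level in EPM (5.09% of all genes), with a median of -1.44.

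Promoters of the 4 classes were described by sequence motifs on both strands. For the shares the whole promoter entry was searched, and a gene with several entries counted if any of them matched. The stretches printed below are only the 250 bases of an entry before the RefSeq start. The NF-kappaB motif was in 7.32% of 287 induced genes with a promoter, against 1.91% of genes tested and 1.89% of all promoters, and ISRE in 11.1% against 3.84% and 3.99%. TATAAA was in 21.6% against 11.7% and 15.7%, and TGANTCA (AP-1) in 13.2% against 7.32% and 8.97%. The CRE motif was in 5.57% against 3.06% and 2.03%, and the CArG box motif in 1.74% against 1.66% and 1.81%. By class, NF-kappaB was in 12.5% of 16 promoters with a lower basal level, 12.5% of 16 with a higher induced level, 14.3% of 7 with a higher basal level and 12% of 25 with a lower induced level. ISRE was in 6.25%, 0%, 0% and 16%, TATAAA in 18.8%, 50%, 28.6% and 20%, and AP-1 in 6.25%, 12.5%, 0% and 12%. The promoters below belong to the named gene with the widest difference in each class that had a single entry in the promoter table. Capitals mark the motifs searched, and a match is a description of sequence only.

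Tnf stands for the lower basal level, at GRCm38.p6 chr17:35202008-35202257, minus strand, with TATAAA in capitals.

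Tnf: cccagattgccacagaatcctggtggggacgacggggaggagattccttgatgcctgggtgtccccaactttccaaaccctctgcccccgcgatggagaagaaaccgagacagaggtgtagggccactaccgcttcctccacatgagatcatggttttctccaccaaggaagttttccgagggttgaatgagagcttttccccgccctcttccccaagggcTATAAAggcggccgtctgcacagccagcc

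Abca8b stands for the higher induced level, at GRCm38.p6 chr11:109995846-109996095, minus strand, with no motif matched.

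Abca8b: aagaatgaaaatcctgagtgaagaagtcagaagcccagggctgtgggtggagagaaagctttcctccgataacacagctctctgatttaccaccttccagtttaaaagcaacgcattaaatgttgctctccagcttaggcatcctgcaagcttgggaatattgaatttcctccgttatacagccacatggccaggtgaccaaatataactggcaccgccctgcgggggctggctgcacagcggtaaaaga

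Gadd45a stands for the higher basal level, at GRCm38.p6 chr6:67037408-67037657, minus strand, with no motif matched.

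Gadd45a: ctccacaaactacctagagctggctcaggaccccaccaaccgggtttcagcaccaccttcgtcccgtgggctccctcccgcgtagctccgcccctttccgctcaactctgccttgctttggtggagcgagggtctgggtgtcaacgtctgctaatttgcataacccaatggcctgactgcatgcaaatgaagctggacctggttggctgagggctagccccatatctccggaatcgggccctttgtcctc

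Il6 stands for the lower induced level, at GRCm38.p6 chr5:30012864-30013113, plus strand, with NF-kappaB and AP-1 in capitals.

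Il6: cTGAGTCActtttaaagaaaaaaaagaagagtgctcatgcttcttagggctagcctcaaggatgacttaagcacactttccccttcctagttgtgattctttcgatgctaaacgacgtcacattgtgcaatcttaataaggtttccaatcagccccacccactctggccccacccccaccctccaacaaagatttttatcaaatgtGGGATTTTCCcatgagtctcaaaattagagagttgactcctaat

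The test was a moderated t-test in limma on the 12 arrays of the series with 1 mean per condition and Benjamini-Hochberg adjustment over all genes. Its p-values measure only the spread between the 2 channels of an array, which share spots. A further fit averaged each array to a single value and took the 2 control arrays of a cell type as replicates, which left 2 residual degrees of freedom. In it limma called 0 genes for the difference of responses, and 704 of 17188 had an unadjusted p under 0.05.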

How the data were processed

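The intensity values that the authors deposited as scanner files were read for the 12 Agilent two-colour arrays of the series. Agilent Feature Extraction 9.5.3.1 had made those files, by the submitters' processing notes. In R 4.3.3 with limma 3.58.1 and data.table version 1.17.8, background was corrected by normexp with an offset of 50, arrays were normalized by loess within and Aquantile between, and each channel was taken as a log2 value. A probe was kept if, in any condition, both channels marked it as well above background, and 1 probe, the brightest, stood for a gene. A linear model with 1 coefficient for each of 12 conditions (12 residual degrees of freedom) gave the 2 responses, their difference and the basal and induced differences by moderated t-test, with Benjamini-Hochberg adjustment over all genes. Called means an adjusted p under 0.05 and at least 2-fold, and level classes used the same thresholds. Figures were drawn in Python 3.11.15 with matplotlib 3.10.9 and pandas 2.3.3.

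Named genes were those of the paper, the widest differences of each class, and list members with a called difference. For a group near background the fold is given as at least that value, and a sign that hangs on such a group is said to rest on groups near background. Floors ran from 5.9 to 6.11 log2. The Cy5 minus Cy3 difference was correlated between the 4 arrays (r from 0.43 to 0.593 over 6 pairs), so dye pairs the channels, and a model with dye as a block was an alternative. The other alternatives changed the offset, the normalization, the probe filter and choice, the samples fitted, the unit of replication, the control, the thresholds, the centring and each channel in turn. Probe positions in the files are on mm8, and promoters came from RefSeq on GRCm38.p6.

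Members and gene lists were chosen with earlier results of these data known. Among the authors' deposited columns those of B cells for KLA at 1 h and DMSO at 12 h fit each other's scanner files, and which labels are right was not settled. No contrast here uses these B cell arrays. They did enter the normalization between arrays, the probe filter, the choice of probe and the shared spread.

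The label protocol calls the 2 channels biological replicates, but they were read from the same spots of an array. Each cell type lay on 1 slide, so basal and induced levels carry slide with cell type. EPM had an untreated control and BMDM a DMSO control. Between 59.5% and 65% of probes were well above background in a channel, and folds of the rest are compressed. Array levels compare poorly between genes.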

Additional observations from a re-analysis of the deposited data

Results flagged for a closer look

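The results here were picked out because the cell types differed in their response to KLA, tested by the interaction contrast in limma with the adjusted p of each gene under 0.05 and a difference of at least 2-fold. Each gene is given with its difference of responses in log2, EPM minus BMDM, and in brackets the value with 12 h DMSO as the control in both cell types. Of 69 named genes, by the definition above, 61 passed, 31 upward in EPM and 30 downward. Genes given without a call as list members, such as Egr1 and Socs3, are outside the 69. Against the 12 h controls 60 kept their sign and 46 their 2-fold size. No cause was tested.

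The widest upward differences were Nfkbiz 3.01 (3.70), Cdk5r1 2.87 (2.68), Tnf 2.79 (3.66), Irgq 2.78 (2.54), Ccl4 2.54 (2.60), Abca8b 2.39 (2.51), Acod1 2.14 (2.63), Ccl3 2.04 (1.99) and Id1 2.02 (0.01). Between these and 1.5 log2 lay Eid3 1.97 (1.85), Nr4a1 1.89 (2.22), Il1b 1.88 (3.62), Ddit4 1.87 (2.11), Prdm10 1.76 (1.68), Prss41 1.76 (1.86), Isg15 1.70 (2.28), Nfkbia 1.57 (2.10), Tnip3 1.52 (1.53) and Marcksl1 1.51 (1.17). The smaller ones were Zc3h12a 1.37 (1.25), Tnfsf9 1.26 (1.59), Il1rn 1.24 (0.19), Tnfsf14 1.18 (1.62), Ets2 1.15 (1.32), Btg1 1.09 (1.30), Dusp6 1.09 (0.14), Il10 1.09 (1.29) and Fosl2 1.00 (0.54). Irgq was at background in BMDM with KLA, so its difference is at least 2.58, and its other probe gave 0.60. The other probe of Abca8b, near background, gave -0.05, and other probes gave 0.23 for Fosl2 and 0.71 for Il1rn. The upward values resting on groups near background were Il23a 1.71 (1.68), Cxcl3 1.21 (1.26) and Il1a 1.12 (1.10).

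The widest downward differences were Cd69 -2.13 (-1.40), Cxcl10 -2.58 (-0.84), Ccl5 -2.94 (-2.48) and Il6 -3.00 (-3.05). Il6 is at least this far apart, with control BMDM at background. Between these and -1.5 log2 lay Egr2 -1.56 (-2.07), 1200016E24Rik -1.79 (-1.62), Tsc22d1 -1.91 (-2.23), Dusp2 -1.92 (-1.70) and Ch25h -1.95 (-0.98). The smaller ones were Mx2 -1.02 (0.29), Ddit3 -1.05 (-1.37), Gadd45b -1.07 (-1.04), Cmpk2 -1.08 (-0.43), Hspa1a -1.11 (-0.51), Il27 -1.15 (-0.33), Atp10d -1.18 (-0.81), Hspa1b -1.18 (-0.55), Sh2d3c -1.18 (-1.01), Krt14 -1.21 (-0.19), Atf3 -1.22 (-1.22), Tmem88 -1.25 (-1.77), Csf1 -1.30 (-1.89), Sgk1 -1.31 (-1.84), Gadd45a -1.35 (-1.53), Fbxo32 -1.39 (-0.27), Mrc2 -1.44 (-0.27) and Mdk -1.47 (-1.42). Other probes of these genes gave up to 0.09 for Mdk, -0.01 for Atp10d, -0.86 for Hspa1b and -0.92 for Cmpk2. Those of Mrc2 (up to 0.18) and Sgk1 (-0.18) were near background. The downward values resting on groups near background were Ifnb1 -1.67 (-1.81), Il12b -2.10 (-2.04) and Cxcl11 -2.13 (-2.18).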

How the results depend on the processing

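The fit gave 1643 genes with different responses, 100 more positive and 73 less positive in EPM, lowered genes included, with classes of induced genes of 20 (lower basal), 25 (higher induced), 10 (higher basal) and 32 (lower induced). Why a count moved was not tested unless the setting itself fixes it.

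With normexp offset 16 the more and less positive counts were 176 and 161, higher induced 51, higher basal 16 and lower induced 67. With the Feature Extraction processed signal they were 378 and 495, with classes of 40, 96, 77 and 130, so the share of more positive responses went from 57.8% to 43.3%. With all 8 channels well above background required, 1016 genes differed, 55 and 48 by 2-fold, with 11 for higher induced and 13 for lower induced. Against 12 h DMSO controls 3736 differed, 151 more positive and 168 less positive. An adjusted p under 0.01 left 995. At 1.5-fold the counts were 281 and 283, with classes of 43, 69, 27 and 89, and at 3-fold 26 and 15, with classes of 6, 11, 2 and 9. Counting only genes whose direction does not rest on a group near background, a setting chosen after seeing the data, gave 66 and 54, with 13 for higher induced and 17 for lower induced.

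With array means as samples and the 2 control arrays of a cell type merged as replicates, which changes the estimates as well as the spread, limma called 0 for each of the 7 counts, with 704 of 17188 genes at an unadjusted p under 0.05 and a smallest adjusted p of 0.0751. With dye as a replicate block, which pairs the channels, 3088 genes differed and 101 and 74 did so by 2-fold.

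Leaving out each channel in turn gave 1141 to 1461 different, 95 to 103 more positive, 73 to 82 less positive, and classes of 19 to 23, 22 to 29, 7 to 12 and 31 to 36. In these fits the lone channel is assumed to vary like the other conditions. Of 61 named genes 60 kept an adjusted p under 0.05 each time, Ddit4 lost it, and 57 to 61 kept a 2-fold size.

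Among named genes, the sign reversed for Il1a (-1.65, processed signal) and Mx2 (0.29, 12 h controls). An adjusted p under 0.05 was lost for Il1a at offset 16 (0.38), for Fosl2 with the mean of probes (0.62), for Cxcl3 (0.57), Ddit4 (2.01), Ifnb1 (-0.47) and Mx2 (-0.62) with the processed signal, for Ddit4 with all 8 channels required, for 9 genes with the 12 h controls and for all 61 with array means. A 2-fold size was kept by 59 genes at offset 16, 55 with the mean of probes, 56 with the processed signal, 46 with the 12 h controls and 49 with array means. The median of the CXC chemokines changed sign under offset 16, the processed signal, no normalization between arrays and the authors' table. Those of the TLR4 and interferon-stimulated lists did so with the 12 h controls, and that of the immediate-early genes with the authors' table. NF-kappaB, cytokine and CC chemokine medians kept theirs.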

Other observations

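Several cytokine and chemokine genes stood apart in level between the cell types, with no difference in response called against the untreated and 1 h DMSO controls. Ccl12, a monocyte chemokine, was lower in EPM by -3.89 before KLA and -4.76 after it, with a difference of responses of -0.86 that became -1.71 with the 12 h controls. Also lower was Ebi3, which pairs with IL-27 p28, with -3.56 before KLA. The stromal chemokine genes Cxcl12 (3.34) and Cxcl14 (2.47) were higher in untreated EPM. The difference of responses for Cxcl12 was 0.14, or -1.29 with the 12 h controls. The MyD88 pathway brake Irak3 was lower in untreated EPM (-2.08), with Myd88 (-1.12) and Ikbke (-1.06).

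KLA lowered Txnip, a thioredoxin inhibitor, with a response of -2.54 in EPM, and lowered it in BMDM too. Of 14 heat shock and handling genes, 5 had a less positive response in EPM (0.425% of all genes), among them Ddit3, which KLA lowered more in EPM (-1.33) than in BMDM (-0.28), and 4 had a higher basal level (5.43% of all genes). Of 5 resident macrophage genes tested, 2 had a higher basal level in EPM, mean Gata6 at 10.45 in untreated EPM and 6.23 in control BMDM, and Prg4 at 9.17 and 6.38. Icam2 read lower in EPM, at 10.38 against 11.01.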
